A study of Caenorhabditis elegans with 4 samples.

Results

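Broad binding regions of PQM-1 are stretches of 1000 bp or more over which the tagged protein was recovered as 1 region. They were selected on their width in the authors' combined region list, which held 264 such regions among 5803 in all, or 4.55% (95% exact binomial interval 4.03% to 5.12%). A further 3 regions passed the width limit but were left out for their very heavy control. Because width was measured in the same contrast of ChIP against input as every other strength value of the list, widths, q-values and tag numbers below are descriptions without a test.

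The ChIP was made from strain OP201 of the nematode Caenorhabditis elegans, which carries the allele unc119(ed3) and the transgene wgIs201. The labels describe its insert as pqm-1::TY1 EGFP FLAG C, with unc119 as the rescue marker, and it was made by recombineering and brought in by bombardment. Hermaphrodites were grown at 20 °C to the third larval stage (L3) and crosslinked with 2% formaldehyde, although the lysis step of the protocol is worded for embryos. The 2 anti-GFP ChIP libraries, made with a goat polyclonal serum against EGFP, and the 2 input libraries came from the same strain, stage and pair of extractions, so they differ in the immunoprecipitation and not in genotype. Both the transgene and the unc-119 rescue were thus present in all 4 libraries, the animals were processed whole, and the tissue in which a region was bound cannot be told apart.

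PQM-1 is a C2H2 zinc finger transcription factor that was first described for its response to the oxidant paraquat. It is known as a partner and counterpart of the FOXO factor DAF-16 in the insulin pathway, with a role in the intestine, where it is linked to growth, fat and stress genes. In ChIP-seq, a single factor bound at a single site gives a region about as wide as the sequenced fragments, while several neighbouring sites, or a factor spread along open chromatin, can be reported by a peak caller as 1 wide region. The profile of tags inside a region is not part of the list, so these arrangements cannot be told apart. No DNA sequence of the regions is shown, and the genes at their positions were not analysed here, because no genome or annotation of the build of the list, WormBase WS180, was used.

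All coordinates below are on WS180. The list gives each region a q-value, the chance level of an excess of ChIP over control tags after adjustment for the number of regions tested. The q-values resolved into whole numbers of ChIP tags and scaled control tags, which set its depth. The number of regions tested, 12873, was inferred from the q-values, and the 5803 listed make up 45.1% of it. All 264 broad regions resolved into a single pair of tag numbers. There was 1 combined list and no value for a single library, so no value here has a replicate error, and intervals cover counting error only.

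The broad regions were few and held a larger share of the length and tags of the listed regions than of their number. They covered 382 kb, 14.2% of the length of all listed regions other than the 3 left out. They held 76359 ChIP tags, 12.8% of the ChIP tags in those regions, and tags outside listed regions are not known. Their share of the scaled control tags, 12.9%, was about as large, so they collected ChIP and control tags in the same proportion as the narrower regions. Their median width was 1260 bp (95% interval of the median 1217 to 1326 bp), against 373 bp for the 5536 narrower regions. Most lay near the limit, with 129 regions of up to 1249 bp and another 61 of up to 1499 bp. A further 44 spanned 1500 to 1999 bp, 23 spanned 2000 to 2999 bp, and 7 were wider still.

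**Figure D1:**
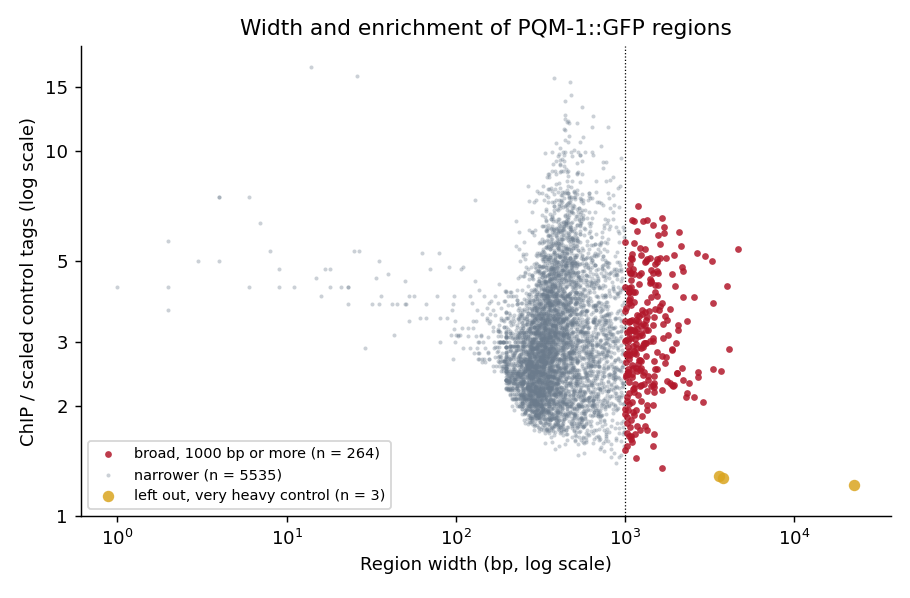
Width of each region in bp against its ratio of ChIP over scaled control tags, both on log scales; red points are the 264 broad regions, grey points the narrower regions with a single pair of tag numbers and yellow points the 3 regions left out. The broad regions lie between ratios of 1.36 and 7.09, where the narrower ones reach from 1.40 to 17.0.

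The widest members were long stretches with 168 to 234 ChIP tags per kb. At V 723663 to 728373, the widest at 4711 bp, 1103 ChIP tags stood against 205 scaled control tags, a ratio of 5.38 (95% exact interval 4.63 to 6.28). The second, V 6225933 to 6230052, spanned 4120 bp with 966 against 336 tags and a lower ratio of 2.88 (2.54 to 3.26). Their ChIP densities were 234.1 and 234.5 tags per kb, while the control held 43.5 tags per kb at the first and 81.6 at the second.

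The third widest, V 9076487 to 9080499, held 828 against 194 tags over 4013 bp, a ratio of 4.27 (3.65 to 5.02). On chromosome I the widest member, I 7656671 to 7660409, held 740 against 296 tags over 3739 bp, a ratio of 2.50 (2.18 to 2.87). Members of 3289 to 3343 bp lay at II 5336411, III 832794 and IV 11913120, with ratios of 2.53, 3.85 and 5.01. The remaining members among the 10 widest began at V 1459335 (2973 bp), X 3114727 (2901 bp) and III 8799817 (2725 bp), with ratios of 5.15, 2.05 and 2.41. Among the 10 widest, ratios thus ran from 2.05 to 5.38, and 4 of the 10 lay on chromosome V.

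Broad regions stood at the top of the list. They made up 39 of the strongest 100 regions, 122 of the strongest 500 and 175 of the strongest 1000, in the order of the list. A q-value under 1e-20 was found in 139 of the 264 broad regions (52.7%), against 463 of the 5536 narrower ones (8.36%) and 10.4% of the whole list. The first 25% of the list held 202 of the broad regions (76.5%, 95% interval 70.9% to 81.5%), against 1246 of the narrower ones (22.5%). Since width chose the members and a wide region has room for more tags, which lower the q-value, these counts describe the list and support nothing further.

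**Figure D2:**
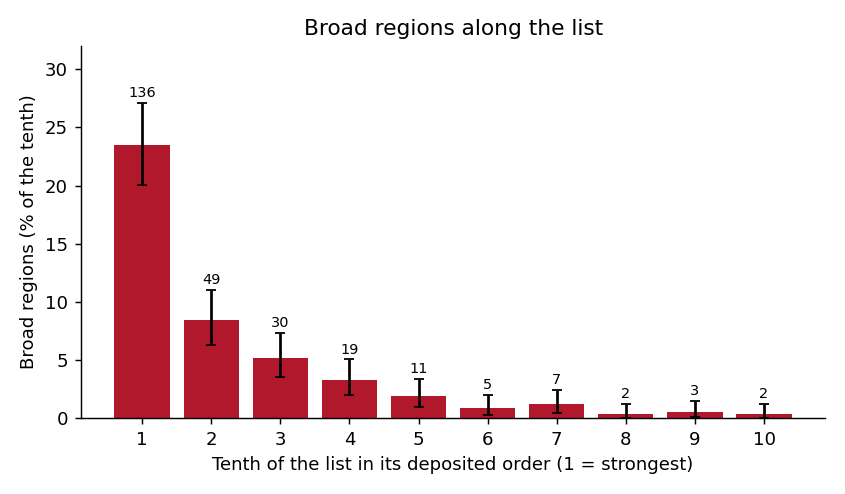
Percent of broad regions in 10 equal bands of the list, from the strongest to the weakest in its deposited order; bars are shares, whiskers 95% exact binomial intervals and numbers above the bars the count of broad regions. Broad regions were 23.4% of the first band (136 regions) and 0.344% of the last (2 regions).

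The 10 strongest members ran from 1615 to 4711 bp in width. The sixth and seventh rows of the list were I 1815349 to 1817049, 1701 bp wide with 590 against 95 tags, and III 599092 to 601196, 2105 bp wide with 571 against 95 tags. Their ratios were 6.21 (4.99 to 7.80) and 6.01 (4.83 to 7.55), and their intervals overlapped almost entirely. On X the strongest members were X 11791402 to 11793348, with a ratio of 5.18 (4.22 to 6.42) over 1947 bp, and X 1503542 to 1505156, with 516 against 93 tags over 1615 bp, a ratio of 5.55. IV 13345993 to 13348655 held 536 against 102 tags over 2663 bp.

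Enrichment over the control was of similar size in broad and narrower regions. The median ratio was 3.08 (95% interval of the median 2.90 to 3.24) in broad and 2.91 (2.87 to 2.94) in narrower regions, with intervals that overlapped. The ChIP density was lower, with a median of 190.2 tags per kb (182.8 to 200.6) in broad regions against 205.2 (203.2 to 207.4) in narrower ones. The control density was lower as well, at 60.2 (57.0 to 64.2) against 68.5 (67.8 to 69.1) tags per kb. The greater number of tags in a broad region, a median of 260 against 80, therefore went with its length rather than with a denser signal. These intervals treat regions as independent, which neighbours are not.

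At equal numbers of ChIP tags, broad regions had the lower ratio. Among regions with 200 to 249 ChIP tags, the 54 broad ones had a median ratio of 3.11 (2.65 to 3.63) and a median width of 1172 bp, against 5.18 (4.86 to 5.65) and 618 bp for 175 narrower ones. Among regions with 250 to 299 ChIP tags, the medians were 3.33 (3.02 to 3.86) in 41 broad and 6.19 (5.18 to 6.79) in 81 narrower regions. The same order held in all 6 classes from 100 to 499 ChIP tags, although the intervals overlapped in the 2 upper classes, of which the last held only 7 narrower regions. With 200 to 249 ChIP tags, the median control was 72.5 tags in broad and 41 in narrower regions. A longer region collects more control at the same ChIP tags, so this order is built into the width limit and supports nothing further. Whether any of it goes beyond width was not tested.

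**Figure D3:**
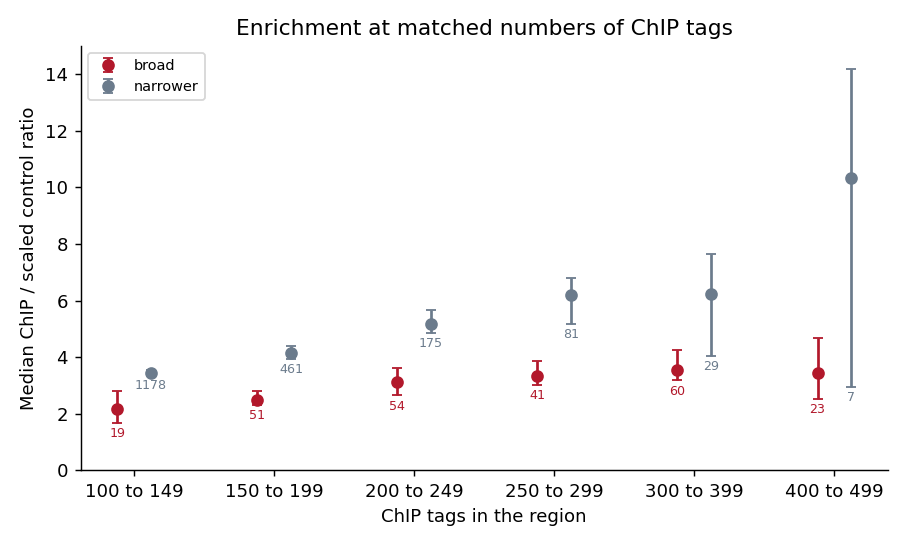
Median ratio of ChIP over scaled control in classes of equal ChIP tags, for broad regions (red) and narrower regions (grey); whiskers are 95% exact binomial intervals of the median and the small numbers give the regions in each class. Broad regions sit lower in every class, for instance at 3.11 against 5.18 with 200 to 249 ChIP tags.

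The broad regions differed widely among themselves. A ratio of at least 5 was found in 33 of the 264 (12.5%), against 11.2% of the narrower regions, and a ratio under 2 in 28 (10.6%), against 8.83%. The highest ratio of a broad region was 7.09 (5.19 to 9.87), at IV 10058358 to 10059561, where 326 ChIP tags stood against 46 over 1204 bp. It was followed by IV 291731 (6.54), III 13605766 (6.49), X 6606919 (6.46) and III 6849555 (6.45), whose intervals overlap so widely that their order is not resolved. These 5 regions were 1105 to 1661 bp wide, and their control, at 36.7 to 42.7 tags per kb, lay below the 25th percentile of broad regions, 47.7. Their ChIP density, at 236.9 to 279.4 tags per kb, lay above the 75th percentile, 234.2.

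The 5 members with the lowest ratios had a dense control and mostly a low ChIP density. Their ChIP densities ran from 123 to 163.6 tags per kb, below the 25th percentile of broad regions, 157.3, except at II 14249507. The lowest ratio, 1.36 (1.10 to 1.68), was at I 3829387 to 3831039, where 213 tags stood against 157 over 1653 bp. Its q-value of 0.00503 was the highest of any broad region. I 7080661, V 6222580, II 14249507 and X 9550002 had ratios of 1.45, 1.52, 1.56 and 1.56. Their control densities ran from 81.0 to 105.2 tags per kb, above the 75th percentile of broad regions, 76.1, and their widths from 1000 to 1467 bp. By q-value, V 6222580 (0.00481), I 7080661 (0.00375), X 1011907 (0.0032) and X 11478707 (0.00153) came next to the weakest. The control at both of these regions on X, 58.7 and 73.2 tags per kb, was not above that percentile. In the last 25% of the list only 5 broad regions were found.

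Across the 264 broad regions, Spearman's rho was -0.69 between ratio and control density and 0.51 between ratio and ChIP density, while for width it was lower, at 0.17 with the ratio and 0.06 with ChIP density. Ratio shares its terms with both densities, so these values are descriptions. With the members ordered by ratio in 3 groups of 88, the median ChIP density was 158.9, 191.0 and 215.8 tags per kb from low to high and the median control density 75.6, 63.4 and 46.1. Their median widths were 1229, 1223.5 and 1411.5 bp.

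The chromosomes differed in how many broad regions they held and in how enriched these were. X held 69 of the 264 (26.1%, 95% interval 20.9% to 31.9%), against 21.5% of the narrower regions (20.4% to 22.6%). This put 3.89 broad regions per Mb on X, followed by 2.82 for the 59 regions on V, 2.42 for the 37 on II and 2.25 for the 31 on III. The lowest densities were 2.12 for the 37 regions on IV and 2.06 for the 31 on I. The counting interval on X, 3.03 to 4.93 per Mb, lay above the densities of the 5 autosomes but overlapped the intervals of V (2.15 to 3.64), II (1.71 to 3.34) and III (1.53 to 3.20). Narrower regions were likewise densest on X, at 67.1 per Mb, and sparsest on I, at 33.9. As a share of each chromosome's regions, the broad ones ranged only from 3.53% on IV to 5.72% on I, with overlapping intervals on all 6 chromosomes.

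Chromosome I, the poorest in regions of any width, had low enrichment in broad and narrower regions alike. The median ratio of its broad regions was 2.27 (1.87 to 2.50) over a median control of 79.3 tags per kb, and 12 of 31 had a ratio under 2. On IV the median ratio was 3.51 (2.94 to 4.24) over 45.9 tags per kb, and none of the 37 had a ratio under 2. The intervals of I and IV did not overlap. Narrower regions showed the same order of I and IV. Their median was 2.46 (2.38 to 2.55) with 101 of 511 under 2 on I, and 3.16 (3.09 to 3.23) with 48 of 1011 under 2 on IV. Broad regions on III were close to those on IV, at 3.63 (2.98 to 4.11) over 54.4 tags per kb. Narrower regions on III were not, at 2.84 (2.74 to 2.96) over 69.0, below those on V (3.08) and X (2.86). Only on III did the intervals of broad and narrower regions not overlap. Broad regions on V and X stood between, at 3.24 and 3.14, and those on II at 2.79. Median ChIP densities of broad regions were nearer to each other, from 176.8 tags per kb on IV to 204.4 on X. The control of the narrower regions moved the same way, from 82.4 tags per kb on I to 60.0 on IV. The part of the control density in these ratios was not tested.

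Broad regions were concentrated in the middle of chromosomes I and II. With each chromosome divided by length into 3 equal parts, 22 of 31 broad regions on I (71.0%, 95% interval 52.0% to 85.8%) and 27 of 37 on II (73.0%, 55.9% to 86.2%) lay in the middle part, against 44.8% and 46.6% of the narrower regions there. The left part of II held 0 of its 37 broad regions, which allows a share of up to 8.11% as 3 counts of the total and 9.49% as the exact 95% limit, while 187 of its 817 narrower regions (22.9%) lay there. Similarly, 0 of the 31 broad regions on I lay in the outermost 10% at either end, which allows up to 9.68% as 3 counts of the total and 11.2% as the exact limit. Of the narrower regions there, 61 of 511 (11.9%, 9.26% to 15.1%) lay in these ends, so the intervals overlapped.

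The other autosomes did not show this. Together, III, IV and V had 57 of 127 broad regions in the middle part (44.9%, 36.1% to 54.0%) and 1301 of 3019 narrower ones (43.1%, 41.3% to 44.9%). Over all 5 autosomes the shares were 54.4% (47.1% to 61.5%) of broad and 44.0% (42.5% to 45.5%) of narrower regions, a difference that rests on I and II. On X, 31 of 69 broad regions (44.9%, 32.9% to 57.4%) lay in the middle part, 23 in the left and 15 in the right (21.7%, 12.7% to 33.3%). The narrower regions there counted 443 in the middle (37.3%, 34.5% to 40.1%), 323 in the left and 423 in the right (35.6%, 32.9% to 38.4%). The intervals of broad and narrower regions overlapped in each part of X. The grouping of I with II was made after these values were seen, and the differences between chromosomes were not tested.

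**Figure D4:**
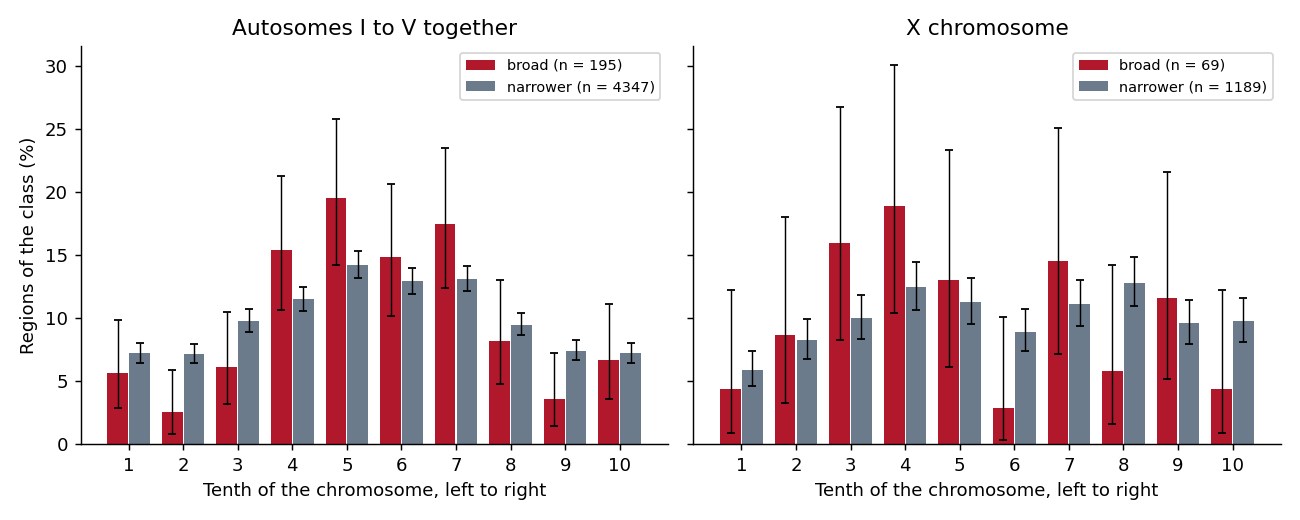
Percent of broad (red) and narrower (grey) regions in 10 equal segments of the chromosome length, from left to right, for the 5 autosomes together and for X; whiskers are 95% exact binomial intervals. On the autosomes the broad regions reach 19.5% in the fifth segment and 2.56% in the second, against 14.2% and 7.15% of the narrower regions.

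In single bins of 1 Mb the members were unevenly spread. The most were found in V 6000001 to 7000000, with 11 broad regions among 94, in X 6000001 to 7000000, with 10 among 114, and in I 7000001 to 8000000, with 9 among 53. The bin on I had the highest share of these, 17.0%, against 11.7% and 8.77% in the others. Of 103 bins, 17 held 5 or more broad regions and 118 of the members between them. Another 22 held none, and 19 of these 22 held at least 20 listed regions. Broad regions were 4.55% of the whole list, and the 17 bins were picked by their count of broad regions. Listed regions of any width were unevenly spread as well, with 114 in the bin on X but 18 in I 14000001 to 15000000. Whether broad regions were more unevenly spread than all listed regions was not tested.

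Broad regions had close neighbours more often than narrower ones. Measured from edge to edge, 141 of 264 (53.4%, 95% interval 47.2% to 59.5%) had another listed region within 1000 bp, against 1753 of 5536 narrower regions (31.7%, 30.4% to 32.9%). The median gap to the nearest region was 886.5 bp (755 to 1073) for broad and 2158 bp (2057 to 2279) for narrower regions. No gap between listed regions was under 200 bp, and whether nearer stretches were joined into 1 region was not tested. Only 7 broad regions (2.65%) had no other region within 20 kb, against 492 narrower ones (8.89%). From midpoint to midpoint the order turned round, at 0.758% of broad against 16.7% of narrower regions within 1 kb, as the midpoint of a broad region lies 500 bp or more from its own edges. The share was higher for broad regions on each chromosome, from 43.5% against 33.1% on X to 70.3% against 32.6% on IV.

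Part of this difference went with strength. Among regions with a q-value under 1e-10, 56.1% of broad (49.1% to 62.8%) and 40.9% of narrower ones (38.4% to 43.4%) had a neighbour within 1000 bp. Under 1e-20 the shares were 53.2% (44.6% to 61.7%) and 47.9% (43.3% to 52.6%), with overlapping intervals. At equal numbers of ChIP tags the intervals overlapped in each class from 100 to 499 tags. With 200 to 249 ChIP tags the shares were 51.9% of broad and 45.1% of narrower regions. With 250 to 299 they were 46.3% and 46.9%, the only class in which the broad share was not the higher. The other classes had larger differences. The shares were 57.9% and 35.9% with 100 to 149 tags and 54.9% and 43.2% with 150 to 199. They were 55.0% and 44.8% with 300 to 399, and 56.5% and 0% with 400 to 499, where only 7 narrower regions were counted. On a wider scale, the median number of other midpoints within 50 kb was 8 (8 to 9) for broad and 7 (7 to 7) for narrower regions. Within 10 kb it was 2 for both.

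**Figure D5:**
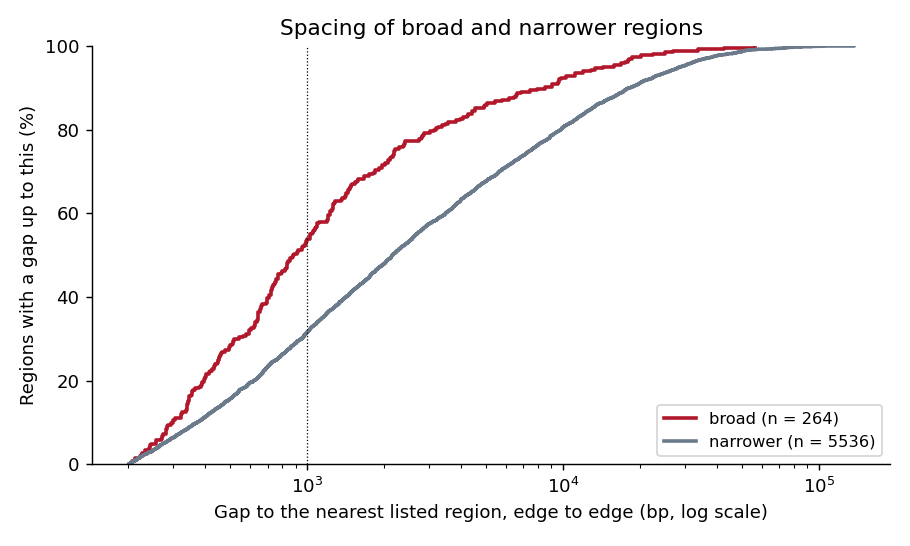
Cumulative percent of broad (red) and narrower (grey) regions by the gap in bp, from edge to edge on a log scale, to the nearest listed region; the dotted line marks 1000 bp. At that line the broad regions have reached 53.4% and the narrower ones 31.7%.

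The nearest regions within 1000 bp of a broad one were 138 separate regions, of which 24 were broad themselves and 114 narrower. Broad regions were thus 17.4% of these neighbours, against 4.55% of the whole list. The whole list is an unlike baseline, because each of these neighbours has a region within 1000 bp and most listed regions do not. Among all listed regions with another within 1000 bp, 141 were broad and 1753 narrower. The difference was not tested. The 114 had a median width of 495 bp (477 to 551) and a median ratio of 2.94 (2.70 to 3.20), against 372 bp (368 to 376) and 2.90 (2.87 to 2.94) in the other 5422 narrower regions. They were thus wider than other narrower regions, with a ratio that was not distinguishable from theirs. Most of those others had no region within 1000 bp, and Spearman's rho between width and gap was -0.14 over all narrower regions. Whether narrower regions close to any other region are as wide was not tested. On both sides within 1000 bp, 22 broad regions (8.33%) had a neighbour, against 4.59% of narrower ones.

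Some broad regions followed directly upon each other. Of 258 pairs of consecutive members on the same chromosome, 35 had a gap under 5 kb, 12 one of 5 to 20 kb, and the median gap was 174.5 kb. Between 25 of the 35 close pairs no other region was listed. When members less than 5 kb apart were joined, 64 of the 264 (24.2%) fell into 29 runs, of which 24 had 2 members, 4 had 3 and 1 had 4. The members of runs had a median ratio of 3.03 (2.55 to 3.36) and the 200 single ones 3.08 (2.88 to 3.33), a difference smaller than the intervals.

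The smallest gap between members, 242 bp, separated V 9073689 to 9076244, with a ratio of 3.98, from the 4013 bp region described above, with 4.27. Together they covered 6569 of 6811 bp (96.4%). Other pairs lay 256 bp apart at IV 13323958 (ratios of 2.90 and 3.05), 271 bp at III 9474247 (3.02 and 2.74), 281 bp at IV 5386361 (3.02 and 4.12) and 340 bp at V 13656220 (4.29 and 3.86). Among these pairs the ratios differed most at IV 5386361, but their intervals, 2.14 to 4.33 and 3.00 to 5.75, overlapped.

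The longest run, II 10541911 to 10557588, held 4 broad regions and 1 narrower one in 15678 bp, and the 4 had ratios of 2.03 to 3.57. The run on X from 6738696 to 6750706 held 3 broad and 3 narrower regions in 12011 bp, with ratios of the broad ones from 3.04 to 3.54. At II 5329782 to 5339753, 3 broad regions filled 71.6% of 9972 bp. The run at V 6222580 to 6230052 joined the second widest member with 2 weaker ones, and its ratios ran from 1.52 to 2.88. On I, the 3 members from 7079158 to 7083644 filled 83.2% of 4487 bp and had ratios of only 1.45 to 2.02. These runs were picked after their values were seen.

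Regions at the limit of 1000 bp had a wide range of ratios on both sides. Just inside it lay X 4244498 (1000 bp, ratio 5.63), V 6222580 (1000 bp, 1.52) and III 9474247 (1002 bp, 3.02), and just outside it V 729952 (998 bp, 3.31), X 10477026 (997 bp, 6.09) and I 5312546 (995 bp, 1.71). Of the 3 regions left out, II 11138441 to 11161066 had 383.8 scaled control tags per kb, II 11132482 to 11136318 had 290.9 and I 15064004 to 15067640 had 1740. The highest control density of a broad region was 154.8 tags per kb. The ratios of the 3, from 1.22 to 1.29, lay below that of each of the 264 broad regions.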

How the data were processed

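Per the file headers, the authors deposited 1 list of regions on WormBase WS180, with PeakSeq named as the source of each region and a q-value as its only score. The sources used here do not give the aligner, the caller's version, read depths or the way both replicates were combined. Each q-value was read as a p-value times 12873 tested regions divided by the row number, and compared with binomial tails for equally likely ChIP and control tags, a chance of 0.5 each, to within 1e-11 on the natural log. Of 2713 places where q fell from one row to the next, 2585 gave the row number by this formula, to within a relative 0.0001. A single pair of ChIP and scaled control tags resulted for 5802 regions and 2 pairs for 1 narrower region, which was left out of tag values. The recovery was tested on simulated data made by that formula, which leaves untested whether the tag numbers are those the caller counted. The scaled control is not a raw input read number.

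Members had a width (end minus start plus 1) of at least 1000 bp. Chromosome lengths are the largest listed coordinates, regions were placed by midpoint, and gaps run from edge to edge. Shares carry exact Clopper-Pearson intervals, densities per Mb exact Poisson intervals and medians exact binomial intervals, all at 95%. No test was run, since regions are not replicates. Members, groups and named regions (the 10 widest, the 10 lowest and 5 highest q-values, the 5 highest and 5 lowest ratios, the 5 closest pairs, the 3 fullest bins and those at the limit) were chosen with earlier results of these data known. Work was done in Python 3.11.15 with scipy 1.17.1 and pandas 2.3.3.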

Additional observations from a re-analysis of the deposited data

How the results depend on the processing

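Of 36 values under other settings, 22 stayed within the 95% interval of the reported value, among them all 6 with the 3 heavy regions kept and all 6 with 1 member per run. With a width limit of 800 bp, 66.9% of broad regions stood in the first 25% of the list. With 1500 bp, this was 97.3%, and 60.8% had a neighbour within 1 kb, against 24.0% and 32.3% of narrower regions. At that limit the median ratio was 3.49 in 74 broad regions against 2.91 in narrower ones. The median ChIP densities were 202.8 and 204.5 tags per kb. The similar ratio and lower ChIP density of broad regions thus belong to the limit of 1000 bp. With a q-value under 1e-10, broad regions had 94.4% in the first 25%, a ratio of 3.36 and 203.5 tags per kb. Narrower regions there had 84.1%, 4.63 and 288.9. Since the filter and the order of the list both use the q-value, the share in the first 25% rises through the filter itself. The cause of the other moves was not tested. Neighbours within 2 kb were found for 71.6% and within 500 bp for 28.0% of broad regions, against 47.9% and 15.6% of narrower ones, and within 1 kb by midpoint for 0.758% against 16.7%. The first 10% of the list held 51.5%. The middle 50% of the autosomes held 73.8% of broad against 62.8% of narrower regions, and without I and II the middle part held 44.9% against 43.1%. Settings on I and II and on runs were added after seeing the data. No paired analysis was possible because both replicates were merged into 1 list, which also kept either replicate from being left out.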
